A study of Mus musculus with 4 samples.

Results

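The 10 genes described here act in the defence of cells against oxidants and reactive metals. They are the metallothioneins Mt1 and Mt2, the heme oxygenase Hmox1, the quinone reductase Nqo1, the glutathione synthesis genes Gclc, Gclm and Slc7a11, the thiol reductases Txnrd1 and Srxn1, and the secreted peroxidase Gpx3. Their probes were taken by name, namely every probe whose gene name in the scanner files was one of these 10. This gave 12 probes, 2 each for Mt1 and Hmox1 and 1 for each of the other 8 genes. The genes themselves were chosen with earlier results of these data known. They were 10 of the 16652 genes measured. All 12 probes were well above background on all 4 arrays, and none was flagged as an outlier or as saturated.

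The cells were cardiac mesenchymal progenitors (CMPs), a Sca-1-positive stromal fraction grown from the heart atria of adult wild-type C57BL/6 mice. One array held untreated cells at day 0 (CMP control), and 1 array for each of days 4, 6 and 8 held CMPs given OSKM, the reprogramming factors Oct4, Sox2, Klf4 and c-Myc (OSKM-CMPs). The factors were delivered by Sendai virus, and the transduced cells were kept in a reprogramming medium without leukemia inhibitory factor, while CMPs were grown in DMEM/F12 with serum and basic fibroblast growth factor. This difference in medium comes from the study's methods: the labels give the growth medium of CMPs for all 4 samples, and whether the control cells were ever in the reprogramming medium was not stated. No array held CMPs with an empty virus or untreated CMPs at a later day, so the factors, the virus, any difference in medium and the time in culture cannot be told apart. How many mice or cultures stood behind an array was not given in the sources used here. With 1 array per condition there was no test and no replicate check: each ± below is the error that the scanning software assigned to the spots, which covers neither cultures nor RNA preparations. For bright spots it is mainly a multiplicative error set in that software (0.1) and not a measured spread, so most differences carry ± 0.20. It is smaller where several spots or probes were averaged, which treats their errors as independent. A cut in errors is thus close to a fixed cut in size. A gene is said to rise or fall where it differed by at least 2-fold, a difference of 1.0 on the log2 scale, and a smaller difference is given as a value. A difference is said to be within its error where it was under 2 errors.

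All 7 CMP markers, Ly6a (which encodes Sca-1) among them, were well above background on every array, with a summed signal of 261 to 382 times the array's 75th percentile. This sum hides opposite moves. At day 8 Ly6a rose (2.69 ± 0.20), while Thy1 (-1.78 ± 0.20), Eng (-1.19 ± 0.20) and Itgb1 (-1.35 ± 0.14) fell. The other 3 were under 2-fold, and the median of the 7 was -0.54. Those named beside Ly6a were named after their values had been seen. Of the 7 adipocyte markers measured, the control array showed 2 well above background, day 4 showed 6 and days 6 and 8 showed 7, and their summed signal went from 5.62 through 20.5 and 150.0 to 367.0. In the CMP control, Adipoq, Cfd, Plin1, Cidec and Retn did not stand well above background, while the other 2 measured did. This sum also hides opposite moves at day 4, where 6 of the 7 had values at least 2-fold above the control and 1 at least 2-fold below it. At days 6 and 8 all 7 were at least 2-fold above it. The summed signals of the macrophage markers (1.01 to 1.52), the endothelial markers (1.12 to 1.91) and the cardiomyocyte markers (4.13 to 11.9) were highest on the control array. For the cardiomyocyte markers this came from Tnnt2, which was highest in the CMP control, whereas Myh6, Tnni3 and Ryr2 did not stand well above background on the control array but did on OSKM-CMP arrays (Ryr2 on those of days 4 and 6). At day 8, 4 of the 5 measured were above the control, of which Nppa (0.10 ± 0.10) and Ryr2 (0.91 ± 0.73) were within their error. The macrophage and endothelial sums hide opposite moves too. Of 7 macrophage markers, 3 were above the control at day 8 and 2 had values at least 2-fold below it. The 3 were Cd68 (near background in the CMP control, at least 2.95-fold), Fcer1g (0.51 ± 0.21) and Ptprc (0.02 ± 0.36). Of 6 endothelial markers, 3 had values at least 2-fold below the control. Vwf (0.78 ± 0.25) and Pecam1 (0.10 ± 0.16) were above it. The part of such cells in the values below was not tested. In RNA from a whole culture, fewer cells of a type and less RNA per cell cannot be told apart.

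Metallothioneins are small cysteine-rich proteins that bind zinc, copper and cadmium and can scavenge oxidants. Zinc activates the transcription factor MTF1, which binds metal response elements and drives their genes. Most of the other genes are targets of NRF2 (the product of Nfe2l2), which is held in check by KEAP1, is freed when electrophiles or oxidants modify KEAP1, and then binds antioxidant response elements as a dimer with a small MAF protein.

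The bases before the transcript start are shown for the pair of metallothionein genes, which rose most, for Gclm, which was lowest against the control, and for Nqo1, which rose. The sequences are 250 bases long, 5′ to 3′ on the gene's strand, from RefSeq on GRCm38.p6. They lie at chr8:94178839-94179088 on the plus strand for Mt1, chr8:94172368-94172617 on the plus strand for Mt2, chr3:122245307-122245556 on the plus strand for Gclm and chr8:107403206-107403455 on the minus strand for Nqo1. Capitals mark matches to the core of the metal response element (TGCACNC or TGCGCNC) or of the antioxidant response element (TGACNNNGC), each searched on both strands.
Mt1: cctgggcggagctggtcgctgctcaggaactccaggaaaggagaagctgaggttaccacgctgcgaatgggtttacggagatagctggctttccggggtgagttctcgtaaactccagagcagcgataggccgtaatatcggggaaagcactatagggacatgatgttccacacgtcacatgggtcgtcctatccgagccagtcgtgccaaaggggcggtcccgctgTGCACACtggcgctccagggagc
Mt2: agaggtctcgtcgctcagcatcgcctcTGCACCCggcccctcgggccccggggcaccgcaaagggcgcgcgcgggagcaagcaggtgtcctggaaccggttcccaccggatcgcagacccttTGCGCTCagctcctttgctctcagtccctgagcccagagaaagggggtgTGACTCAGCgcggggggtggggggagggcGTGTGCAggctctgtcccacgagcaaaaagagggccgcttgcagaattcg
Gclm: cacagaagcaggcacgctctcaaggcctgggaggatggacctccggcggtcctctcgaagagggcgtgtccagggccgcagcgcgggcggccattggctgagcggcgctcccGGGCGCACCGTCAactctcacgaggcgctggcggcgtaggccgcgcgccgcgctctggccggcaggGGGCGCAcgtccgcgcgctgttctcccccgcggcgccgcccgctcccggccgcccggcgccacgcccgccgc
Nqo1: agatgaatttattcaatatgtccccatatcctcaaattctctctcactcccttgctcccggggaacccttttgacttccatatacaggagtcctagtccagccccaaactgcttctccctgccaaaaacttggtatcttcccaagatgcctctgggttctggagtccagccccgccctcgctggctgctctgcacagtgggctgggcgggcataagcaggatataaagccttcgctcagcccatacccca

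Mt2 held 3 metal response element cores in these 250 bases, at -223 to -217, -128 to -122 and -50 to -44 from the start, and 1 antioxidant response element core at -79 to -71. Mt1 held 1 metal response element core, at -23 to -17. Among all 32851 RefSeq promoters of this length, 21.4% held at least 1 metal response element core, 5.17% at least 2 and 1.26% at least 3, and 10.2% held an antioxidant response element core. Gclm held 2 metal response element cores, at -138 to -132 and -72 to -66, and an antioxidant response element core at -134 to -126 that overlaps the first of them. In the other genes in the table, Srxn1 held 1 metal response element core and the second of the 3 Txnrd1 starts held 1 antioxidant response element core, and Nqo1, Slc7a11 and Gpx3 held neither set of letters in this window. Gclc and Hmox1 were not in the table. With the 50 bases after the start added, a window chosen after these matches had been seen, Mt1 held 3 metal response element cores and Mt2 held 4, against 1.97% of promoters with at least 3 and 0.517% with at least 4. The matches so added for Mt1 lay just after its start, at 3 to 9 and 21 to 27. All these counts depend on the RefSeq start, and which start these cells used was not tested. A match of letters is a description and not a binding site.

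**Figure D1:**
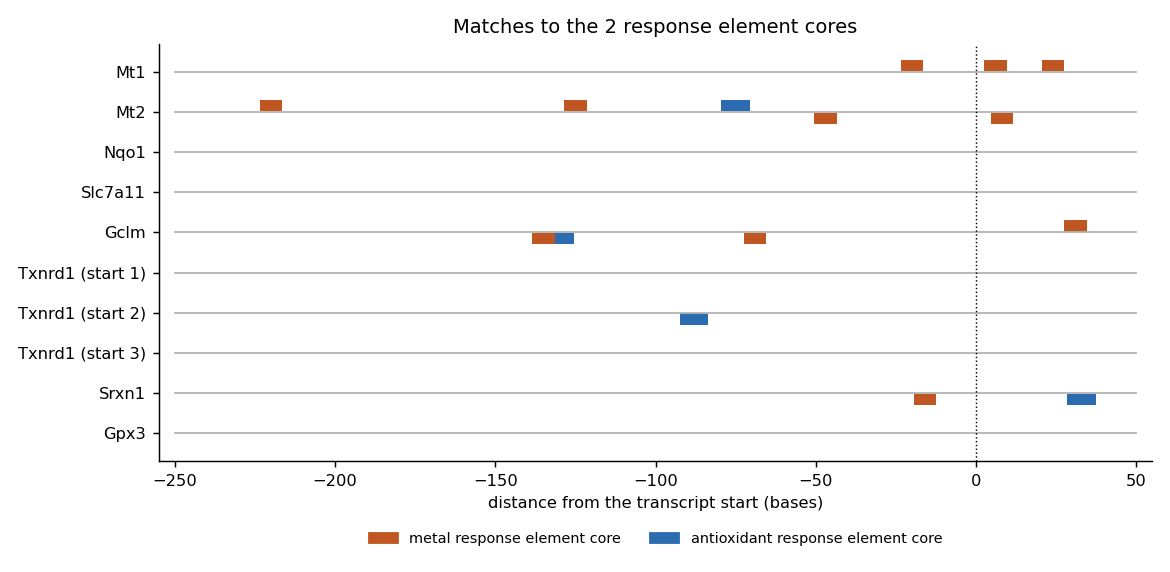
Each line is the stretch from 250 bases before to 50 bases after a transcript start, with the distance from the start in bases on the horizontal axis. Boxes above the line are matches on the gene's strand and boxes below it are matches on the opposite strand, for the metal (orange) and antioxidant (blue) response element cores. In the 250 bases before the start, Mt2 holds 3 metal response element cores, Gclm 2 (the antioxidant core of Gclm is partly covered by the first) and Nqo1 none.

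Against the control array, 4 of the 10 genes rose at day 4 (Mt1, Mt2, Nqo1 and Slc7a11), beside 12.1% of all genes, and none fell, beside 9.57%. At day 6, 2 rose (Mt1 and Mt2), beside 13.0% of all genes, and 1 fell (Gclm), beside 11.5%. At day 8, 3 rose (Mt1, Mt2 and Nqo1), beside 14.4%, and none fell, beside 11.6%. The median difference of the 10 genes was 0.27, 0.31 and 0.47 on the log2 scale at days 4, 6 and 8, and that of all genes was -0.01, -0.04 and -0.03. The 3 comparisons share the control array, so a departure of that array would enter all of them. Between day 4 and day 8, none of the 10 passed 2-fold in either direction, beside 4.91% of all genes that rose and 4.11% that fell. The day 8 array thus lay within 2-fold of the day 4 array in each of the 10 genes.

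**Figure D2:**
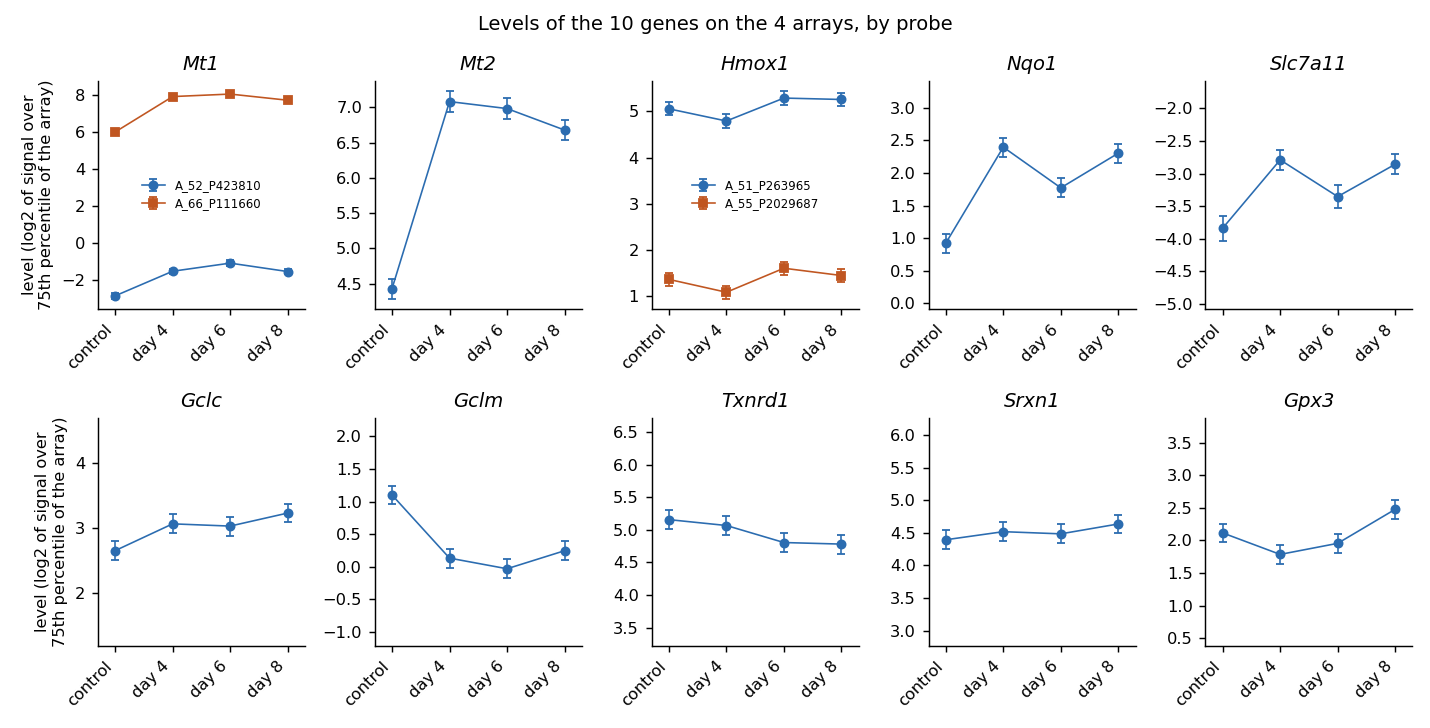
Levels of the 10 genes on the control, day 4, day 6 and day 8 arrays, as log2 of the processed signal over the array's 75th percentile. Each point is 1 probe on 1 array, bars are 1 error of the scanning software, the vertical axes differ between panels, and Mt1 and Hmox1 have a line for each of their 2 probes. Both Mt1 probes and the Mt2 probe were lowest on the control array, and Gclm was highest there.

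Mt2 changed most. Its level, as log2 of the signal over the array's 75th percentile, was 4.43 in the CMP control and 7.08, 6.98 and 6.68 in OSKM-CMPs of days 4, 6 and 8. The control was thus far below the 3 OSKM-CMP arrays, while neighbouring levels among the OSKM-CMPs were within their error. The difference to the control was 2.65 ± 0.20 at day 4 (6.29-fold), 2.55 ± 0.20 at day 6 (5.87-fold) and 2.25 ± 0.20 at day 8 (4.76-fold). At day 4, 96.84% of all genes had a smaller difference than Mt2, and at day 8, 94.61%. From day 4 to day 8 it was -0.40 ± 0.20, within its error.

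Mt1, the other broadly expressed metallothionein, had levels of 1.56 in the CMP control and 3.18, 3.47 and 3.08 on days 4, 6 and 8 as the mean of its 2 probes. Its order was the control far lowest, then day 8, day 4 and day 6 with gaps between neighbours within their error. It was 3.09-fold the control at day 4 (1.63 ± 0.15), 3.77-fold at day 6 (1.92 ± 0.15) and 2.87-fold at day 8 (1.52 ± 0.15). The 2 Mt1 probes lie at chr8:96704165-96704224 and chr8:96703844-96703903 in the mm9 build that the scanner files use, and differed greatly in brightness, with processed signals of 24864.9 and 52.6 on the control array. Both rose on every OSKM-CMP array, the bright probe by 1.92, 2.06 and 1.72 and the dim probe by 1.34, 1.78 and 1.32 on the log2 scale at days 4, 6 and 8. Their differences lay 0.59 ± 0.30, 0.28 ± 0.30 and 0.40 ± 0.30 apart, all within the error. Mt1 and Mt2 are closely related in sequence, but their probes of 60 bases shared no run of letters longer than 7.

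The pattern of Mt2 over the 3 days was closest to those of Ikzf4, Ano1, Flywch2, Igf2bp3 and Enpp3, at Euclidean distances of 0.06 to 0.13 among the 13754 genes well above background on all arrays. That of Mt1 was closest to Ifi47, Gfra1, Hvcn1, Igdcc4 and Sema4b, at distances of 0.17 to 0.18. None of these is one of the 10 genes, and with 3 values per gene the likeness is a description only.

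The other genes of metal handling moved less. The list of other metallothioneins and zinc handling genes had 8 of its 9 members measured, and none of them passed 2-fold on any day, with a median of -0.10, -0.11 and -0.26 at days 4, 6 and 8. Among all genes, 14.4% rose and 11.6% fell at day 8. Mtf1, the zinc sensor that drives the metallothioneins, differed from the control by -0.42 ± 0.15, -0.41 ± 0.15 and -0.35 ± 0.15. The other metallothioneins measured lay on opposite sides of the control at day 8, Mt3 at -0.51 ± 0.20 and the dim Mt4 at 0.69 ± 0.24. Slc39a14, a zinc importer, had the largest difference of the list, -0.90 ± 0.20 at day 6 and -0.76 ± 0.20 at day 8. Slc30a1, the zinc exporter that MTF1 also drives, differed by 0.05 ± 0.20, 0.16 ± 0.20 and 0.45 ± 0.20. Mt3, Mt4, Slc39a14 and Slc30a1 were named after their values had been seen.

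**Figure D3:**
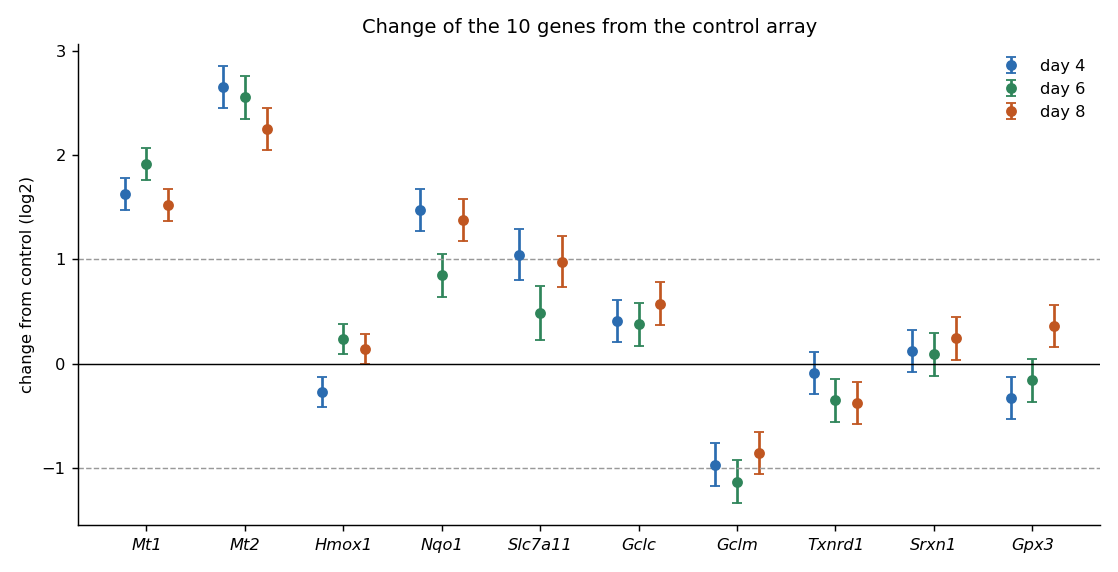
Difference of each of the 10 genes from the control array at day 4, day 6 and day 8, on the log2 scale. Points are the mean of a gene's probes, bars are 1 error of the scanning software, and the dashed lines mark 2-fold in either direction. Mt1 and Mt2 lie above the upper line on all 3 days, and Gclm passes the lower line at day 6 only.

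Nqo1, which reduces quinones to hydroquinones and is a classical NRF2 target, had levels of 0.92 in the CMP control and 2.40, 1.77 and 2.30 on days 4, 6 and 8. The control was lowest and day 6 lay between it and the other days, with both gaps larger than 2 errors, while days 4 and 8 were within their error. Nqo1 was 2.78-fold the control at day 4 (1.47 ± 0.20), 1.80-fold at day 6 (0.85 ± 0.20) and 2.60-fold at day 8 (1.38 ± 0.20).

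Slc7a11, the cystine carrier of system xc- that supplies cysteine for glutathione, was dim on every array, with levels of -3.84, -2.79, -3.35 and -2.86 on the control, day 4, day 6 and day 8 arrays. As for Nqo1, days 4 and 8 were highest and day 6 lay nearer the control, here within its error. Slc7a11 was 2.07-fold the control at day 4 (1.05 ± 0.25), and its differences were 0.48 ± 0.26 at day 6 and 0.98 ± 0.25 at day 8. The day 4 rise lay at the threshold and was lost with the array median, with quantile normalization and with a model-based background correction (normexp), under which it was 0.90, 0.90 and 0.42.

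Gclc and Gclm encode the catalytic and the modifier subunit of glutamate-cysteine ligase, the rate-limiting enzyme of glutathione synthesis, and they lay on opposite sides of the control. Gclm had levels of 1.10 in the CMP control and 0.13, -0.03 and 0.25 on days 4, 6 and 8, so that the control was highest and the 3 OSKM-CMP arrays were within their error of each other. It differed from the control by -0.97 ± 0.20, -1.13 ± 0.20 and -0.86 ± 0.20, which was a 2.19-fold fall at day 6 and 1.96-fold and 1.81-fold lower at days 4 and 8. Scaled to the array median Gclm was past 2-fold on all 3 days (-1.11, -1.26 and -1.12), and with the model-based background correction on none (-0.83, -0.99 and -0.74). Gclc had levels of 2.65, 3.06, 3.03 and 3.23 on the control, day 4, day 6 and day 8 arrays, with the control lowest. Its differences were 0.41 ± 0.20, 0.38 ± 0.20 and 0.58 ± 0.20, of which those at days 4 and 8 were larger than 2 errors.

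Hmox1, which cleaves heme to biliverdin, iron and carbon monoxide, had levels of 3.21 in the CMP control and 2.94, 3.45 and 3.35 on days 4, 6 and 8 as the mean of 2 probes. It did not pass 2-fold on any day, with differences of -0.27 ± 0.14, 0.24 ± 0.14 and 0.14 ± 0.14, all within the error. Day 8 exceeded day 4 by 0.41 ± 0.14, and the 2 probes gave differences at most 0.12 apart. Gpx3, a selenium-dependent peroxidase that is secreted into plasma and is also expressed in fat tissue, had levels of 2.12, 1.79, 1.96 and 2.48 on the 4 arrays in order. Its differences to the control were -0.33 ± 0.20, -0.16 ± 0.20 and 0.36 ± 0.20, and day 8 exceeded day 4 by 0.69 ± 0.20. Hmox1 and Gpx3 were the only members whose day 8 and day 4 levels differed by more than 2 errors. The summed adipocyte markers went from 20.5 to 367.0 between the same arrays, and their part in the Gpx3 difference was not tested.

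Txnrd1, the cytosolic thioredoxin reductase, and Srxn1, which restores overoxidised peroxiredoxins, differed little from the control. Txnrd1 had differences of -0.09 ± 0.20, -0.35 ± 0.20 and -0.38 ± 0.20, and its levels lay between 4.78 and 5.16. Srxn1 had differences of 0.12 ± 0.20, 0.09 ± 0.20 and 0.24 ± 0.20, and its levels lay between 4.39 and 4.64. All 6 differences were within the error.

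**Figure D4:**
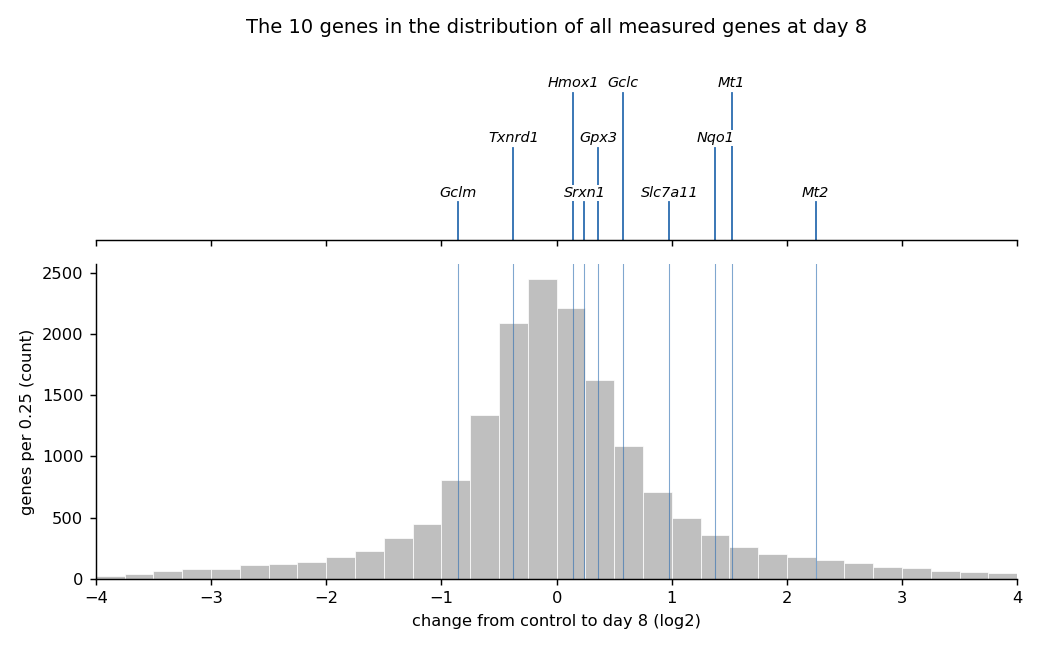
The grey bars count all measured genes by their difference between the day 8 and control arrays in steps of 0.25 on the log2 scale, and the blue lines mark the 10 genes. The axis ends at 4 in either direction, which leaves out 101 genes below and 265 above. Mt2, Mt1 and Nqo1 lie in the upper tail, above 94.61%, 90.91% and 89.81% of all genes, and Gclm lies above 14.24%.

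None of the 10 NRF2 pathway regulators rose and 2 fell on each day, with a median of -0.21, -0.20 and -0.22 at days 4, 6 and 8. Among all genes, 12.1%, 13.0% and 14.4% rose and 9.57%, 11.5% and 11.6% fell on these days. Nfe2l2 itself differed from the control by 0.11 ± 0.20, 0.11 ± 0.20 and 0.34 ± 0.20, and Keap1, its inhibitor, by 0.28 ± 0.20, 0.18 ± 0.20 and 0.13 ± 0.20. Bach1, the repressor that competes with NRF2 at antioxidant response elements, differed by -0.13 ± 0.20, 0.13 ± 0.20 and 0.13 ± 0.20. The 2 that fell were small MAF genes, the dimerisation partners of NRF2. Maff had levels of 2.95, -0.19, -0.67 and -0.50 on the 4 arrays and was 10.9-fold lower than the control at day 8 (-3.45 ± 0.20). Mafk had levels of 2.31, 0.22, 0.53 and 0.65 and was 3.16-fold lower at day 8 (-1.66 ± 0.20). Mafg, the remaining member of that family on the list and named after its value had been seen, differed by -0.51 ± 0.10 at day 8.

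Of the 28 other NRF2 targets 27 were measured. On each day 7 rose, though not the same 7 throughout. None fell at day 4, and 1 fell at days 6 and 8, with a list median of 0.24, 0.03 and 0.19. Beside this, 12.1%, 13.0% and 14.4% of all genes rose and 9.57%, 11.5% and 11.6% fell at days 4, 6 and 8. Members of the alpha class of glutathione S-transferases, which conjugate glutathione to lipid peroxidation products, changed most. Gsta2 had levels of -4.83, 2.07, 2.18 and 3.20 on the 4 arrays, a difference of 8.03 ± 0.33 at day 8, and Gsta1 had levels of -3.48, 3.38, 3.36 and 4.39, a difference of 7.87 ± 0.23. Gsta4 went from -2.43 to 1.98, a difference of 4.41 ± 0.07. The control level of Gsta2 was below that of the dim Slc7a11 (-3.84) and that of Gsta1 was also dim. The size of these differences thus rests on control values near background. Gsta1 and Gsta2 are near-identical in sequence, and hybridisation of one transcript to the probe of the other was not tested. The other 4 that rose at day 8 were Gsta3, Abcc4, Slc48a1 and Gpx2, of which the former 3 were named after their values had been seen. Gsta3 passed 2-fold at day 8 only, with differences of -0.14 ± 0.14, 0.29 ± 0.14 and 1.32 ± 0.14 at days 4, 6 and 8. The one that fell was Akr1b8, an aldo-keto reductase, which was 2.29-fold lower at day 8 (-1.20 ± 0.06). Ferritin heavy chain (Fth1) and the pentose phosphate enzyme G6pdx, named after their values had been seen, differed by 0.34 ± 0.20 and 0.70 ± 0.20 at day 8.

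In glutathione metabolism, 1 of the 10 genes measured rose and 1 fell on each day, with a median of -0.30 at day 8. These counts were near the shares of all genes at day 8, where 14.4% rose and 11.6% fell. Ggt5, which cleaves leukotriene C4 and glutathione and was named after its value had been seen, was too dim on the control array to stand well above background and was at least 7.82-fold higher at day 8. Chac1, which degrades glutathione and is a target of the integrated stress response, was 3.27-fold lower (-1.71 ± 0.20). Among the 9 superoxide dismutases, catalase and glutathione peroxidases 1 rose and none fell, beside the same shares of all genes, with a median of -0.08 at day 8. The one that rose was the epithelial peroxidase Gpx2, dim on the control array, with levels of -4.05, -2.09, -2.59 and -2.49 on the 4 arrays (1.56 ± 0.28 at day 8).

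Among the 18 peroxiredoxins and other thioredoxin system genes, 3 rose and 2 fell at day 8, with a median of -0.26. Both counts were near the shares of all genes, 14.4% that rose and 11.6% that fell. The 3 that rose are not themselves reductases or peroxidases. Txnip, which binds and inhibits thioredoxin, was 4.52-fold higher (2.18 ± 0.14), and Sesn1 and Sesn3, sestrins that restrain growth signalling, were 2.57-fold (1.36 ± 0.20) and 2.53-fold higher (1.34 ± 0.20). The methionine sulfoxide reductase Msrb3 was 2.61-fold lower (-1.39 ± 0.20) and the mitochondrial and peroxisomal Prdx5 was 2.22-fold lower (-1.15 ± 0.14).

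Of the 12 heme and iron genes 2 rose and none fell at day 8, with a median of 0.13. The count that rose was near the share of all genes, 14.4%, and 11.6% of all genes fell. Hpx, which encodes the heme-binding plasma protein hemopexin, had levels of -3.34, -2.93, -1.39 and 0.39 on the 4 arrays. It was dim on the control array and 13.3-fold higher at day 8 (3.73 ± 0.22). Slc40a1, the iron exporter ferroportin, was 6.88-fold higher (2.78 ± 0.21) and had reached 2.79 ± 0.21 at day 4. Of 8 superoxide-producing oxidases measured 3 had values at least 2-fold above the control at day 8, beside 14.4% of all genes. The list median was 0.08. Xdh, which produces superoxide as xanthine oxidase, was 4.16-fold higher (2.06 ± 0.20). The other 2, named after their values had been seen, rested on dim probes: Duox1 and Cybb did not stand clear of background in the CMP control and were at least 2.13-fold and at least 1.39-fold higher, so that a 2-fold rise of Cybb is not shown.

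**Figure D5:**
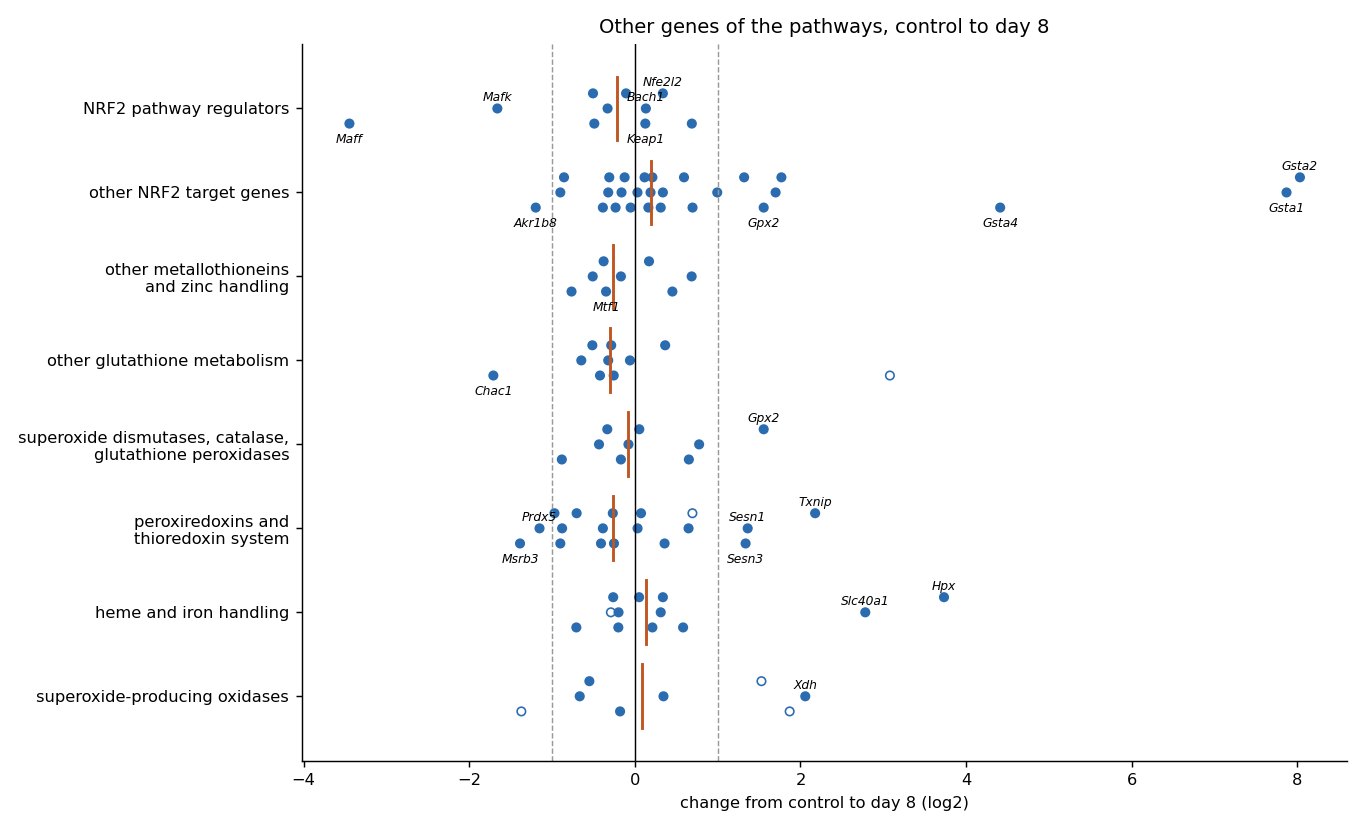
Difference between the day 8 and control arrays on the log2 scale for the genes of the 8 pathway lists. Each point is a gene, open points are genes too dim to stand well above background on one of the arrays, orange bars are list medians, and dashed lines mark 2-fold. The medians lie between -0.30 and 0.19, while Gsta1 and Gsta2 lie near 8.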

How the data were processed

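Total RNA was labelled with Cy3 and hybridised to Agilent one-color mouse arrays, 1 per condition. The authors deposited the scanner output of each array, whose values used here are spot intensity after the background subtraction of Agilent Feature Extraction (version 10.7.3.1 in the file headers, 9.5.3 in the submitters' processing notes), and a table of log2 values that the authors normalized in GeneSpring. Set against the scanner files, that deposited log2 table was the log2 processed signal shifted by a constant per array. Probe positions in the files are on mm9, and their place within transcripts was not used here.

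For each array, log2 of the processed signal was taken, spots not flagged as outliers were averaged per probe, and each array was scaled by subtracting its 75th percentile. Of 55681 probes, 35535 stood well above background on at least 1 array, and the 22975 of these that were named for a gene entered the gene levels. All 55681 probes, dim ones included, were looked up in RefSeq (GRCm38.p6): 26863 were named by accession, 3752 by symbol and 623 by synonym, while 24443 had no match. A gene's level is the mean of its kept probes, and a gene counts as above background only if all of them were. The percentage of probes well above background was 56.54 to 59.63, and the number of arrays limits the precision. The ± is the propagated error of Feature Extraction (median over all genes 0.20). A gene dim on 1 side is given as a bound against the lowest signal well above background.

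Each OSKM-CMP array was compared with the control array, and day 8 with day 4, without a test. Named were the 10 members, for each list up to 3 genes with the largest rise and 3 with the largest fall at day 8 among those past 2-fold, measured above background on both sides and with 1 sign throughout, the regulators Nfe2l2, Keap1, Bach1 and Mtf1, and the 5 genes nearest in pattern to Mt1 and Mt2; others are said to be chosen later, and 1 gene is not reported here. The members and lists were chosen with earlier results of these data known. The alternatives were the array median, quantile normalization, normexp (offset 50) with quantile normalization, the authors' table, other filters, a floor on dim values, and the brightest probe. The scripts were checked on simulated data. Python 3.11.15, numpy 2.4.6, pandas 2.3.3, R 4.3.3 and limma 3.58.1 were used.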

Additional observations from a re-analysis of the deposited data

How the results depend on the processing

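No paired analysis was possible because there was 1 array for a condition, and nothing was tested. The filters and the floor could not move a member, since all 12 probes were well above background, the authors' table moved none by over 0.0034, and the brightest probe bears on Mt1 and Hmox1 alone. Under the 3 alternatives that rescale the arrays, 70 of 90 member values moved by less than their error, and Mt1, Mt2, Nqo1, Gclc, Gclm, Slc7a11 and Gpx3 kept their sign on every day. Over all the alternatives, Mt1 at day 8 lay between 1.25 (array median) and 1.72 (brightest probe) on the log2 scale. Mt2 at day 8 lay between 1.98 (array median) and 2.51 (quantile normalization). Scaling to the array median lowered the median of all genes by 0.14, 0.13 and 0.27 at days 4, 6 and 8, and every member by about as much, so that the following values contain this common shift and their distances to all genes are unchanged. The number of members at least 2-fold lower became 1 at day 4 and 1 at day 8, both Gclm, and the members' median at day 8 became 0.20. The list medians at day 8 then became -0.48 for the NRF2 regulators, -0.077 for the other NRF2 targets, -0.52 for other metallothioneins and zinc handling, -0.57 for glutathione metabolism, -0.34 for superoxide dismutases, catalase and glutathione peroxidases, -0.53 for peroxiredoxins and the thioredoxin system, -0.13 for heme and iron and -0.18 for the oxidases. Hmox1 became -0.12 at day 8 and Srxn1 -0.02, -0.04 and -0.02. With quantile normalization the medians were 0.43 for the other NRF2 targets, 0.22 for superoxide dismutases, catalase and glutathione peroxidases, and -0.19 for the oxidases. With normexp before it they were 0.42 and 0.21 for the former 2 lists, no member was 2-fold lower at day 6 (0), Txnrd1 at day 4 became 0.08, and Slc7a11 became 0.42, 0.15 and 0.34. With only probes above background on all 4 arrays the median of the oxidases was -0.18, and with the brightest probe that of other metallothioneins and zinc handling was 0.0017. The causes of these moves were not tested, apart from the common shift. Slc7a11 and the dim Mt1 probe lie near background, where the background correction weighs most.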
